A study of Mus musculus with 8 samples.

Results

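Expression of 10 Notch pathway genes was followed in the periventricular area of the brain of *Lrig1* KO mice and their WT littermates. The 10 genes were chosen by name, as the rows of the gene table for 3 receptors (*Notch1*, *Notch2* and *Notch3*), 3 ligands (*Dll1*, *Jag1* and *Jag2*) and 4 intracellular effectors (*Rbpj*, *Hes1*, *Hes5* and *Hey1*), out of 54307 gene rows in all. Each symbol matched a single row. Bulk mRNA was sequenced from the microdissected area that contains the ventricular-subventricular zone (V-SVZ), the stem cell niche along the lateral ventricle of the adult forebrain. The KO group held 4 mice (2 female, 2 male) and the WT group 4 mice (3 female, 1 male), all 8 weeks old and on the 129-Elite background. KO mice were homozygous for CreERT2 knocked into the beginning of the endogenous *Lrig1* gene, a constitutive loss of the protein in all cells and at all ages, and WT mice were littermates that carried no CreERT2 allele. RNA came from a single hemisphere of each brain. The stated purpose of the comparison was to find signalling pathways that change when LRIG1 is lost.

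Notch signalling passes between neighbouring cells. Delta-like and Jagged ligands on a sending cell bind Notch receptors on a receiving cell, the receptor is then cut by ADAM proteases and gamma-secretase, and its intracellular domain moves to the nucleus, where it joins the DNA-binding protein RBPJ and switches on genes of the Hes and Hey families. In the adult V-SVZ this pathway is known for holding neural stem cells in a quiescent, undifferentiated state, with HES and HEY proteins repressing proneural genes.

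Total estimated counts ranged from 47887437 to 74482334 per mouse. *Lrig1* itself, the targeted gene, stood at 45.6, 13.5, 41.4 and 34.3 CPM (counts scaled to a common library size, with edgeR's TMM factors) in WT replicates 1 to 4, and at 1.41, 4.15, 1.17 and 2.96 CPM in KO replicates 1 to 4. The genotypes did not overlap for *Lrig1*, and its log2 fold change, KO minus WT, was -3.80 (95% interval -4.97 to -2.63). Even so, its edgeR adjusted *p* over all genes was 0.286 in the fit without covariates. In that fit the targeted gene itself did not pass the threshold of 0.1 used for the 10 members. The paper, using DESeq2 on the same mice, reported *Lrig1* as its most significantly lowered gene. Markers of the labelled tissue were present in every mouse: the astrocyte and stem cell gene *Gfap* ranged from 48.0 to 103.3 CPM, the neuroblast gene *Dcx* from 24.7 to 33.2 CPM and the ependymal gene *Foxj1* from 9.57 to 18.9 CPM. Markers of neighbouring tissue were present as well. The 5 cortical excitatory neuron markers summed to between 13.5 and 325.5 CPM in the 5 females and to between 444.5 and 1704 CPM in the 3 males, with WT replicate 2 and KO replicate 3, both male, at the top. None of these 5 markers was at 0 in any mouse. The 6 markers of striatal medium spiny neurons summed to between 2129 and 6846 CPM.

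None of the 10 genes passed for a difference between KO and WT. The same fit did not pass *Lrig1* either, so the lack of calls does not show that the 10 genes are unchanged. With edgeR's quasi-likelihood test over 17669 genes, 0 of 10 passed an adjusted *p* of 0.1, and the adjusted *p* of every member was 0.9998. In the same test 1 gene of all passed, which is 0.00566% of those tested. It was *Gm43079*, named here after its values were seen, with 50 to 67.3 estimated counts in WT mice and 0 in every KO mouse. At an unadjusted *p* under 0.05 the count was 0 of 10 members against 1.88% of all genes, and DESeq2 likewise called 0 of 10. The values of the 2 genotypes overlapped for all 10 members, whereas 1.53% of all genes had KO and WT values that did not overlap. Of the 10 differences, 7 lay below 0, with a median log2 fold change of -0.11, beside a median of -0.00094 and 50.3% below 0 over all genes tested. In bulk tissue, fewer cells of a type and less RNA per cell cannot be told apart, and this holds for each value that follows.

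**Figure D1:**
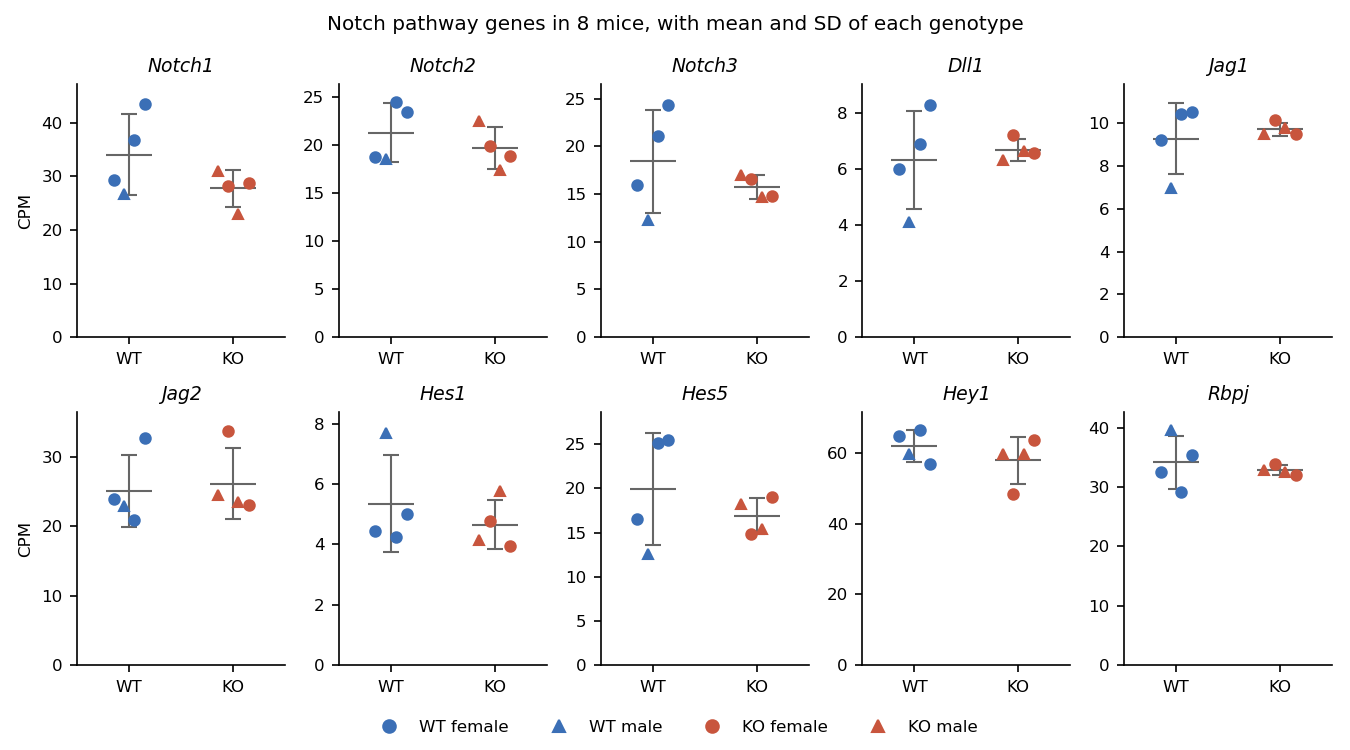
CPM (vertical axis, from 0) of the 10 Notch pathway genes in each WT and KO mouse, with circles for females, triangles for males, and the mean and SD of each genotype in grey. The genotypes overlapped in all 10 panels, and for *Notch3* the SD was 5.38 CPM in WT and 1.21 CPM in KO.

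Among the receptors, *Notch1*, which is expressed by adult neural stem cells and their progeny, had the largest difference of the 10 genes in the reported fit. It did not keep that place in every alternative fit. For example, *Hes1* exceeded it with sex as a covariate, and *Hes5* and *Notch3* did with females alone. It was at 29.4, 26.8, 36.7 and 43.5 CPM in WT replicates 1 to 4 and at 31.1, 28.3, 23.0 and 28.8 CPM in KO replicates 1 to 4. WT replicates 3 and 4 lay above all KO mice, while WT replicates 1 and 2 lay within their range. The log2 fold change, KO minus WT, was -0.29 with a standard error of 0.16 and a 95% interval from -0.66 to 0.07, which spans 0.632 to 1.05 times the WT level. Without WT replicate 4 the *Notch1* value was -0.16. Without WT replicate 2, the mouse with the most cortical marker RNA, it was -0.40 and, with *Notch3* and *Hes5*, had an unadjusted *p* under 0.05 in edgeR. Its adjusted *p* stayed at or above 0.844 in all 19 alternative fits.

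*Notch2*, a receptor linked to stem cell quiescence in this niche, was at 18.7, 18.6, 24.4 and 23.4 CPM in the WT mice and at 22.5, 19.9, 17.4 and 18.8 CPM in the KO mice. The groups lay over each other, and the log2 fold change was -0.11 (95% interval -0.39 to 0.17), and -0.04 without WT replicate 3. *Notch3*, a receptor also known from vascular mural cells, was at 15.9, 12.3, 21.1 and 24.4 CPM in WT and at 17.0, 16.6, 14.6 and 14.8 CPM in KO. As for *Notch1*, WT replicates 3 and 4 were the 2 highest mice, and WT replicate 2 was the lowest. The log2 fold change of *Notch3* was -0.23 (95% interval -0.67 to 0.22), and it was -0.06 without WT replicate 4. The 3 receptor differences kept their sign in all 19 alternative fits.

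The ligands lay closer to 0. *Dll1*, a Delta-like ligand carried by activated progenitors and their daughters, was at 5.99, 4.12, 6.91 and 8.30 CPM in the WT mice and at 6.31, 7.21, 6.66 and 6.56 CPM in the KO mice. All KO values stood inside the WT range. Its log2 fold change was 0.08 (95% interval -0.36 to 0.52), and it turned to -0.08 without WT replicate 2. *Jag1*, a Jagged ligand of the stem cell niche, was at 9.23, 6.97, 10.5 and 10.5 CPM in WT and at 9.51, 10.1, 9.78 and 9.51 CPM in KO. The KO mice spanned less than 1 CPM. Its log2 fold change was 0.07 (95% interval -0.24 to 0.38), and it turned to -0.05 without WT replicate 2. *Jag2*, the other Jagged ligand, was at 24.0, 22.9, 20.9 and 32.7 CPM in WT and at 24.5, 33.7, 23.5 and 23.0 CPM in KO. A single mouse in each genotype, WT replicate 4 and KO replicate 2, was far above the others. Its log2 fold change was 0.06 (95% interval -0.33 to 0.45), and it turned to -0.09 without KO replicate 2.

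*Rbpj*, the DNA-binding protein that all Notch receptors act through, was the most even of the 10 genes between mice, with a coefficient of variation of 9.13% over the 8 mice. It was at 32.6, 39.7, 29.1 and 35.5 CPM in WT and at 32.9, 33.9, 32.6 and 32.1 CPM in KO. All 4 KO mice lay between the lowest and the highest WT mouse. The log2 fold change was -0.06 (95% interval -0.28 to 0.16), and it turned to 0.02 without WT replicate 2.

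*Hes1*, a transcriptional repressor and a classical Notch target, was at 4.44, 7.71, 4.24 and 4.995 CPM in WT and at 4.14, 4.79, 5.75 and 3.94 CPM in KO. The highest mouse of each genotype was the one with the most cortical marker RNA, WT replicate 2 and KO replicate 3. The log2 fold change was -0.20 (95% interval -0.69 to 0.29) and turned to 0.03 without WT replicate 2. *Hes5*, a repressor that reports canonical Notch activity in neural stem cells, was at 16.6, 12.6, 25.1 and 25.5 CPM in WT and at 18.2, 14.9, 15.4 and 19.0 CPM in KO. WT replicates 3 and 4 were again above all other mice. The log2 fold change of *Hes5* was -0.24 with a standard error of 0.22 and a 95% interval from -0.74 to 0.26, and it was -0.10 without WT replicate 4. *Hey1*, a repressor of the Hey family, was at 64.8, 59.7, 66.6 and 56.9 CPM in WT and at 59.8, 48.4, 59.8 and 63.8 CPM in KO. KO replicate 2 was the lowest mouse, and the other 7 lay close together. Its log2 fold change was -0.10 (95% interval -0.32 to 0.12), and -0.020 without KO replicate 2.

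The letters through which RBPJ reads DNA are shown in 3 promoters, because *Hes5*, *Hey2* and *Lfng* are Notch-responsive genes in which these letters are present and whose values are given here. The windows run from 250 bases before to 50 bases after the transcription start, are taken from RefSeq on the GRCm38.p6 build, and are printed 5′ to 3′ on the strand of the gene, with capitals for TGGGAA or its longer form GTGGGAA on either strand (TTCCCA and TTCCCAC where the site is on the opposite strand). GTGGGAA contains TGGGAA, so the counts of the 2 motifs overlap. The windows are chr4:154960673-154960972 on the plus strand for *Hes5*, chr10:30842734-30843033 on the minus strand for *Hey2*, and chr5:140607091-140607390 on the plus strand for *Lfng*.
Hes5: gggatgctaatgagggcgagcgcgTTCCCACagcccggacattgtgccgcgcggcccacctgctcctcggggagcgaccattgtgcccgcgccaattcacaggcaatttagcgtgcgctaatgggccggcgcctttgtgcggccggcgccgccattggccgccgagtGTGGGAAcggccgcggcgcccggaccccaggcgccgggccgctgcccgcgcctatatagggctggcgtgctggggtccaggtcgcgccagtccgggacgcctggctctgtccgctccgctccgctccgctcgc
Hey2: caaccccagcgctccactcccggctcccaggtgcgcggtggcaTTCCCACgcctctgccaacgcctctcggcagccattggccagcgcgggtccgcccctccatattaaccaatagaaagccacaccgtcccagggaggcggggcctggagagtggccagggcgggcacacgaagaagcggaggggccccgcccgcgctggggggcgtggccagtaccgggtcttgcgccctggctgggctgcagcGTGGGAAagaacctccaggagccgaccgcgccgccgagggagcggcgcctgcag
Lfng: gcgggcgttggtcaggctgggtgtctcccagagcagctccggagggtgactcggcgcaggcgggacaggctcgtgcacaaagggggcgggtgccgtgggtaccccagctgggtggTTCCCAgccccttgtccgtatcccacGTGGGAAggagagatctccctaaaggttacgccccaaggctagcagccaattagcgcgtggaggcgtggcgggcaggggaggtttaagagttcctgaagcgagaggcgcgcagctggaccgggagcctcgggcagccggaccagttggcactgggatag

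In the *Hes5* window GTGGGAA began 226 and 83 bases before the start, once on each strand. In the *Hey2* window it began 207 and 4 bases before the start, and in the *Lfng* window 109 bases before it. Of the 10 members, 8 had a window in the table, *Hes1* and *Hey1* being the other two. GTGGGAA was found in 1 of these 8 genes (*Hes5*) and TGGGAA in 2 (*Hes5* and *Rbpj*). By window these were 1 and 3 of 10, beside 6.38% and 25.6% of all 32851 promoter windows of the same length. Windows of the receptors and ligands among the members held neither. Among 67 windows of 50 other Notch pathway genes, 6 held GTGGGAA and 13 held TGGGAA. The window of *Nrarp*, also a Notch target with values given here, held neither. The letters CACGNG, which HES and HEY proteins can bind, were present in 5 of the 8 genes (*Notch2*, *Notch3*, *Dll1*, *Jag1* and *Jag2*). By window these were 6 of 10, beside 25 of 67 for the other Notch pathway genes and 27.5% of all windows. A match of letters is not a measured binding site.

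No other gene of the pathway passed either. Of 65 further Notch pathway genes, 63 were expressed highly enough to be tested. In the reported edgeR fit 0 passed an adjusted *p* of 0.1 or an unadjusted *p* under 0.05, beside 0.00566% and 1.88% of all genes. With sex as a covariate in edgeR, 7 of 63 had an unadjusted *p* under 0.05, beside 1228 of all 17669 genes, and 0 of 63 passed. DESeq2 also called 0. In the reported fit 46 of the 63 genes had a log2 fold change below 0, and the median of the 63 was -0.02, beside 50.3% and -0.00094 over all genes. By role, 12 of 13 genes for ubiquitin ligases, endocytosis and receptor turnover lay below 0, as did 9 of 13 corepressors, 6 of 7 coactivators, 7 of 8 Hes/Hey family and target genes, 6 of 10 proteases, 4 of 7 further receptors and ligands and 2 of 5 sugar transferases. None of these groups held a gene that passed.

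*Dlk1*, a non-canonical ligand and imprinted gene, had the largest difference of this list. It was at 76.9, 6.64, 43.4 and 75.1 CPM in WT and at 56.6, 143.9, 40.9 and 66.1 CPM in KO. Its log2 fold change of 0.61 had a 95% interval from -0.89 to 2.10, and it was 0.11 without KO replicate 2, the highest mouse, and 1.37 with sex as a covariate. *Mfng*, a Fringe sugar transferase that tunes which ligand a receptor answers to, followed with 0.32 (95% interval -0.18 to 0.81), at 3.09 ± 0.579 CPM in WT and 3.85 ± 0.972 CPM in KO (SD, n = 4 each). *Dner*, a Notch-binding transmembrane protein of neurons, gave 0.31 (95% interval -0.17 to 0.79). Without KO replicate 2 the *Mfng* and *Dner* values were 0.16 and 0.14. The mice of the 2 genotypes overlapped for all 3 genes.

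The direct target genes outside the 10 also stood near 0. *Nrarp*, which encodes a feedback inhibitor of the Notch complex, was at 33.6, 21.6, 39.7 and 49.3 CPM in WT and at 30.6, 41.3, 29.9 and 34.6 CPM in KO, a log2 fold change of -0.08. *Lfng*, *Hey2* and *Heyl* gave -0.14, -0.11 and -0.01. WT replicate 4 was the highest WT mouse for all 4 of these genes, and the signs of all 4 turned positive once sex entered the fit, to at most 0.21. The endothelial receptor *Notch4* and the ligands *Dll4* and *Dll3* were low, with WT means of 4.35, 2.22 and 2.03 CPM and log2 fold changes of -0.0057, 0.03 and -0.20.

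**Figure D2:**
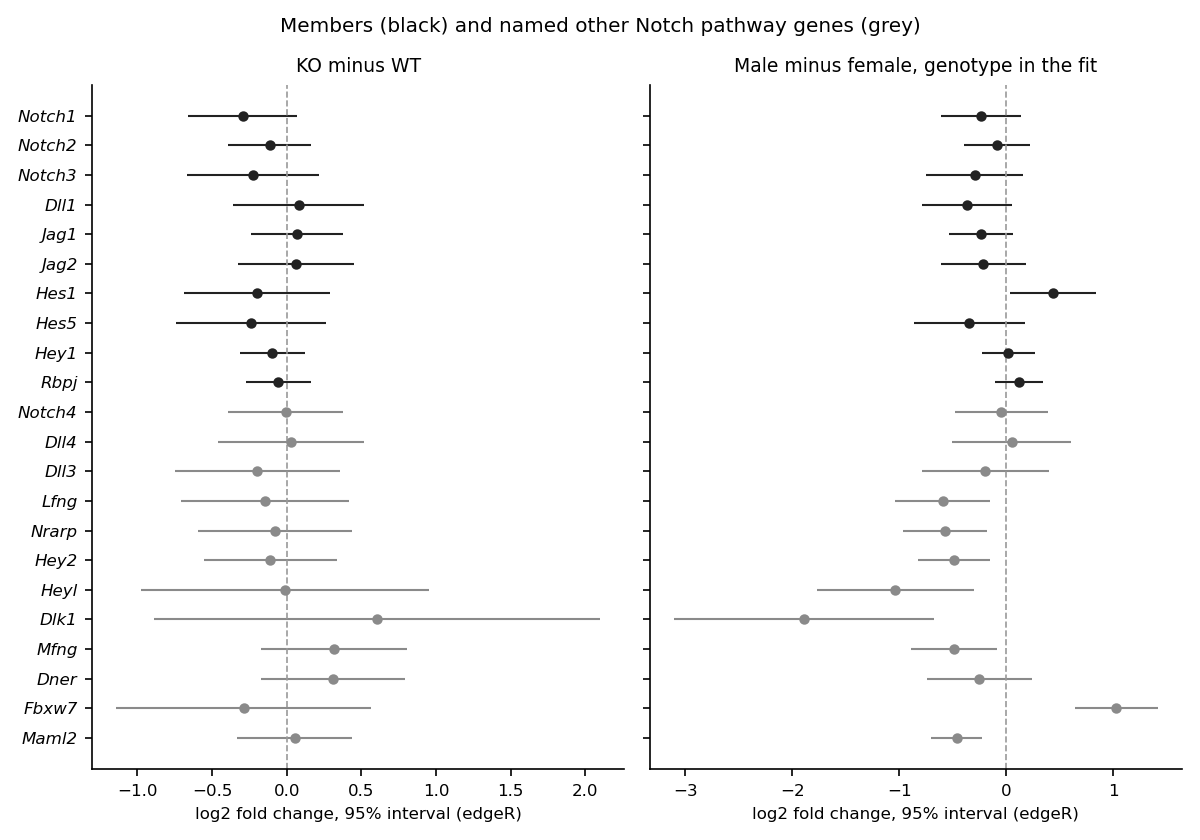
Log2 fold change with its 95% interval (horizontal axis, edgeR) of the 10 members in black and the named other Notch pathway genes in grey, for KO minus WT on the left and for male minus female with genotype in the fit on the right. All intervals on the left cross 0, and on the right *Fbxw7* at 1.03 and *Maml2* at -0.46 were the 2 genes that passed an adjusted *p* of 0.1.

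Compared per transcript length, the effectors *Hey1* and *Hes5* stood at the top and the receptors in the lower part of the range. In TPM, a level that divides the reads by transcript length, *Hey1* had the highest level with 37.7 ± 4.47 TPM, followed by *Hes5* with 25.5 ± 6.57 TPM (SD, n = 8 mice). *Jag2* followed with 9.85 ± 2.84 TPM, *Rbpj* with 8.72 ± 1.65 TPM and *Hes1* with 6.43 ± 2.35 TPM. *Notch1* was at 4.36 ± 1.10 TPM, *Dll1* at 3.49 ± 0.693 TPM and *Notch3* at 2.86 ± 0.700 TPM, with *Notch2* at 2.59 ± 0.310 TPM and *Jag1* at 2.33 ± 0.310 TPM. Of the 9 neighbouring pairs in this order, the ranges over the 8 mice were apart only between *Hes5*, lowest at 20.2 TPM, and *Jag2*, highest at 14.5 TPM. The ranges of all other neighbours overlapped. Within each mouse the order was firmer at 2 further places, since *Hey1* was above *Hes5* and *Rbpj* above *Hes1* in 8 of 8 mice, while *Jag2* was above *Rbpj* in 5 of 8. The TPM scale itself moved between mice, since transcripts of the mitochondrial genome took between 23.7% and 36.9% of it.

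**Figure D3:**
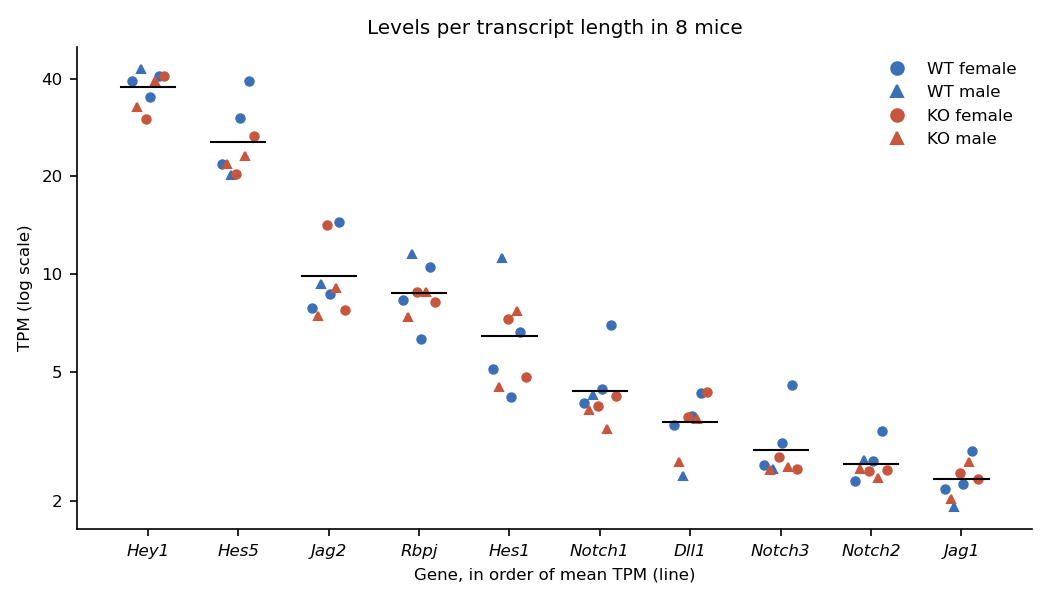
TPM (vertical axis, log scale) of each gene in each mouse, in order of the mean over 8 mice (line), coloured by genotype with circles for females and triangles for males. *Hey1* and *Hes5* lay above the other 8 genes, whose ranges overlapped from neighbour to neighbour.

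On average over the mice, the transcript estimates placed most of each gene's TPM in a single coding transcript. *Notch1*-201, *Notch2*-201, *Notch3*-201 and *Jag1*-201 carried on average 99.4%, 98.8%, 99.1% and 98.4% of their gene's TPM, and *Hey1*-201 carried 95.5%. The other 5 genes had a further transcript above 5% of gene TPM and were tested for a shift between genotypes. *Hes1*-201 carried 92.1%, 80.7%, 93.9% and 89.99% in WT replicates 1 to 4 and 84.0%, 67.0%, 84.4% and 88.6% in KO replicates 1 to 4. The lowest share, in KO replicate 2, set KO apart most, and the genotypes overlapped, with a mean difference of -8.18 percentage points (exact permutation *p* = 0.2, two-sided, adjusted *p* = 0.943 over 5 genes). *Rbpj*-203 carried 61.3%, 61.7%, 57.8% and 86.8% in WT and 73.8%, 47.2%, 55.8% and 88.6% in KO, with *Rbpj*-202, a second coding transcript of nearly the same length, at 0 to 42.2% of gene TPM. Its share varied more within each genotype than between them. For *Dll1*-201, *Jag2*-201 and *Hes5*-201 the differences were 1.42, 4.98 and 0.554 percentage points, and 0 of the 5 genes passed. The smallest exact *p* that 4 mice against 4 allow is 0.0286, which becomes 0.143 when a single gene of the 5 reaches it, so no lone shift could have passed.

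For all 5 of these genes the main transcript held a smaller mean share of the TPM than of the reads. *Dll1*-204, a retained-intron transcript of 751 bases, took 19.0% of *Dll1* TPM, and *Jag2*-209, a coding transcript of 742 bases, took 22.6% of *Jag2* TPM. Counted in estimated reads, the main transcript held 93.7% of *Dll1*, 95.1% of *Jag2* and 96.9% of *Hes1* in WT mice. *Rbpj* had the smallest gap, with 69.5 ± 15.2% of its reads on *Rbpj*-203 in WT and 67.8 ± 17.7% in KO (SD, n = 4 each). Its mean shares of TPM were 66.88% in WT and 66.35% in KO.

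Several members varied together from mouse to mouse. Of 45 pairs, 12 passed an adjusted *p* of 0.1 (exact permutation test of Pearson's r of log2 CPM over 8 mice, two-sided), 11 of them with a positive r, and 5 passed by Spearman's rho. These points share the normalization of their libraries. The mice also differed in marker RNA of neighbouring tissue, with cortical marker sums from 13.5 to 1704 CPM. The share of pairs that pass among genes outside the set was not computed. Whether the members vary together more than other genes do was therefore not tested. The ligands *Dll1* and *Jag1* were the closest pair, with r = 0.97 (exact permutation *p* = 0.000298, adjusted *p* = 0.0134) and rho = 0.95 (exact permutation *p* = 0.00114, adjusted *p* = 0.0502). Their r was 0.87 without the 2 mice farthest from the median of *Dll1*, and 0.97 with each genotype centred on its own mean.

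The 3 receptors tended to vary with each other and with *Hes5*. *Notch2* and *Notch3* had r = 0.84 and rho = 0.93 (exact permutation *p* = 0.00533 and 0.00223, adjusted 0.040 and 0.0502). That r was 0.60 without the 2 mice farthest from the median of *Notch2*. *Notch1* followed *Notch2* with r = 0.88 and rho = 0.88 (exact permutation *p* = 0.00151 and 0.00724, adjusted 0.0290 and 0.0815), and *Notch3* with r = 0.89 and rho = 0.90 (exact permutation *p* = 0.00427 and 0.00456, adjusted 0.0384 and 0.0685). *Notch1* and *Hes5* had r = 0.85 and rho = 0.86 (exact permutation *p* = 0.00764 and 0.0107, adjusted 0.0491 and 0.0964), and r = 0.92 without the 2 mice farthest from the median of *Notch1*. *Notch3* and *Hes5* had r = 0.90 and rho = 0.76 (exact permutation *p* = 0.00318 and 0.0368, adjusted 0.0357 and 0.207), and r = 0.76 without the 2 mice farthest from the median of *Notch3*. *Notch2* and *Hes5* were the weakest link, with r = 0.80 and rho = 0.74 (exact permutation *p* = 0.0179 and 0.0458, adjusted 0.0893 and 0.229), and r = 0.39 without the 2 mice farthest from the median of *Notch2*. By Pearson's r, *Notch3* with *Dll1* (0.80), *Notch3* with *Jag1* (0.77) and *Jag1* with *Hes5* (0.72) passed too, but none of them passed by rho. Without the 2 mice farthest from the median of the gene named first, their r was 0.31, 0.69 and 0.42. No pair of *Notch1* or *Notch2* with a ligand passed. *Hes1* did not rise with *Hes5*, with r = -0.60 and rho = -0.52 (exact permutation *p* = 0.111 and 0.197, adjusted 0.309 and 0.492). Their r was 0.07 without the 2 mice farthest from the median of *Hes1*, so a negative relation was not established. *Hes1* went with *Rbpj*, with r = 0.79 and rho = 0.62 (exact permutation *p* = 0.0245 and 0.115, adjusted 0.0929 and 0.397). That r was 0.66 without the same 2 mice. *Jag2* and *Hey1* ran in opposite directions, with r = -0.86 and rho = -0.64 (exact permutation *p* = 0.00194 and 0.0962, adjusted 0.0290 and 0.361), and r = -0.59 without the 2 mice farthest from the median of *Jag2*. The number of pairs that passed depended on single mice and was 2 without WT replicate 3 or without WT replicate 4.

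**Figure D4:**
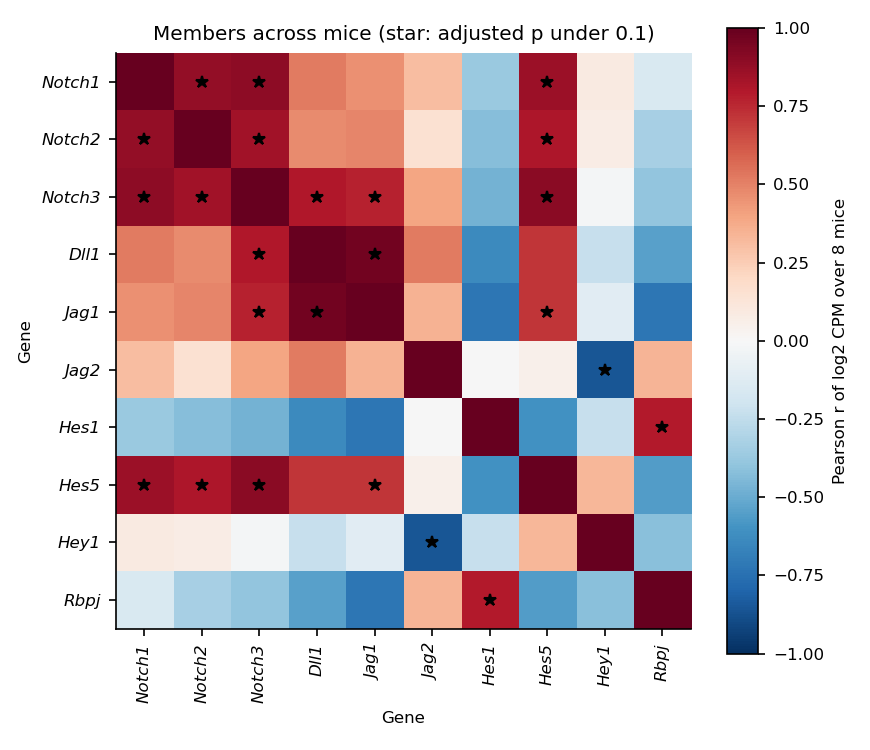
Pearson's r of log2 CPM over 8 mice for each pair of the 10 genes (colour from -1 in blue to 1 in red), with a star where the adjusted *p* was under 0.1. The receptors and *Hes5* share a red block, *Dll1* and *Jag1* reach 0.97, and *Jag2* with *Hey1* is the single starred blue pair at -0.86.

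Marker genes of other cell types moved with some members. Among 120 relations of the 10 genes with 12 summed marker lists, 2 passed an adjusted *p* of 0.1 by Pearson's r and 0 by Spearman's rho. Both were with the 5 markers of oligodendrocyte precursors, which were above 1 CPM in every mouse and summed to 272.9 to 427.6 CPM in WT and 274.8 to 322.4 CPM in KO. *Notch1* had r = 0.92 and rho = 0.86 with this sum (exact permutation *p* = 0.000769 and 0.0107, adjusted *p* = 0.0759 for r), and r = 0.90 without the 2 mice farthest from its median. *Notch3* had r = 0.90 and rho = 0.86 (exact permutation *p* = 0.00127 and 0.0107, adjusted *p* = 0.0759 for r), and r = 0.66 without the same 2 mice. *Hes1* had r = 0.72 and rho = 0.64 with the cortical marker sum (exact permutation *p* = 0.0393 and 0.0962, adjusted *p* = 0.277 for r), and r = -0.91 and rho = -0.71 with the striatal sum (exact permutation *p* = 0.00380 and 0.0576, adjusted *p* = 0.134 for r). Other relations that missed the threshold were stronger by r than that of *Hes1* with the cortical sum. They included *Hey1* with oligodendrocyte (r = 0.91), *Rbpj* with striatal (r = -0.87) and *Jag2* with neuroblast markers (r = 0.81). *Notch1* with microglia and *Hes5* with precursor markers both had rho = 0.93. The part of these cell types in the members' values was not tested.

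**Figure D5:**
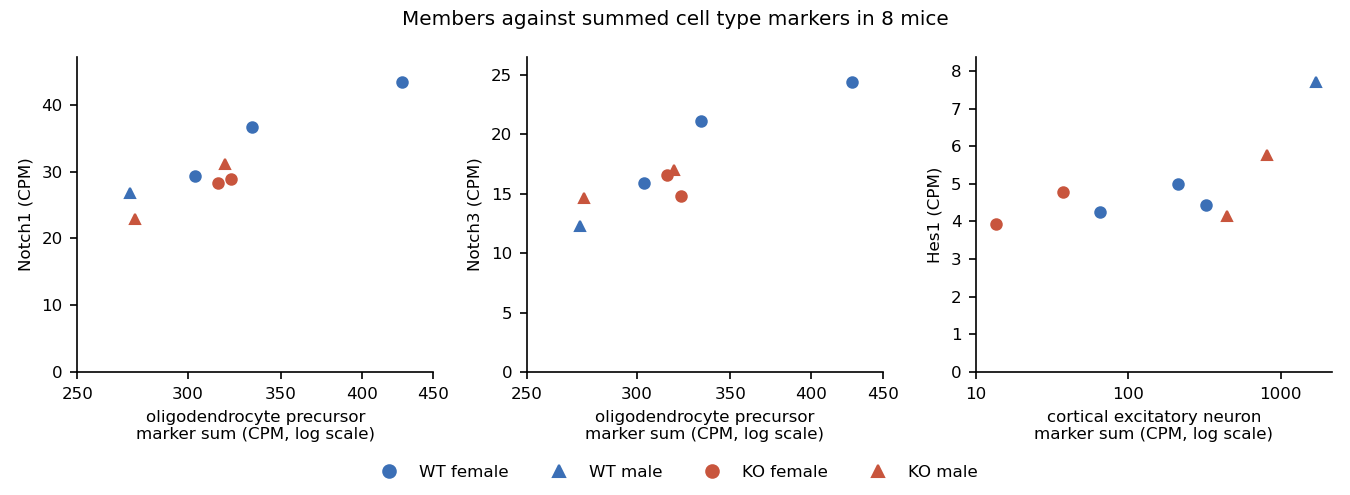
CPM of *Notch1* and *Notch3* (vertical axes, from 0) against the summed CPM of 5 oligodendrocyte precursor markers, and of *Hes1* against that of 5 cortical excitatory neuron markers (horizontal axes, log scale), for each mouse. *Notch1* and *Notch3* are highest in WT replicate 4, which has the highest precursor sum of 427.6 CPM, and *Hes1* in WT replicate 2, which has the highest cortical sum of 1704 CPM.

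Between the sexes, none of the 10 members and 2 of the further pathway genes passed. In a fit with genotype and sex, 3.72% of all genes passed an adjusted *p* of 0.1 between 3 males and 5 females, 15.9% had an unadjusted *p* under 0.05, and 7.5% had sexes that did not overlap. Of the 10 members, 0 passed, 1 had an unadjusted *p* under 0.05 and 0 had sexes that did not overlap, so the members stood no higher than the background. That 1 gene was *Hes1*. In females it ranged from 3.94 to 4.995 CPM with a median of 4.44 CPM, and in males it was at 4.14, 5.75 and 7.71 CPM, a log2 difference (male minus female) of 0.44 with a 95% interval from 0.03 to 0.84 and an edgeR adjusted *p* of 0.275. Its difference was 0.17 when WT replicate 2 was left out. It was 0.59 without KO replicate 1, the only fit in which *Hes1* passed. *Dll1* followed at -0.37, *Hes5* at -0.34 and *Notch3* at -0.29, with adjusted *p* from 0.381 to 0.523.

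Among the 63 further genes tested, 2 passed, 17 had an unadjusted *p* under 0.05 and 7 had sexes that did not overlap, beside the same 3.72%, 15.9% and 7.5%. Of the 17 genes, 8 were higher and 9 lower in males. The 7 genes without overlap include 1 corepressor that is not named here. The 2 that passed are named after their values were seen. *Fbxw7*, a ubiquitin ligase subunit that marks the Notch intracellular domain for destruction, was higher in males, with 106.2 to 246.0 CPM beside 80.7 to 101.7 CPM in females and a log2 difference of 1.03 (edgeR adjusted *p* = 0.0369). *Maml2*, a Mastermind coactivator of the Notch complex, was lower in males, with 7.18 to 8.09 CPM beside 9.52 to 12.1 CPM in females and a log2 difference of -0.46 (edgeR adjusted *p* = 0.0765). Neither passed without WT replicate 2 or without KO replicate 3, and *Maml2* passed in only 2 of the 8 fits that left out a mouse, beside 6 of 8 for *Fbxw7*.

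A further 4 targets or modifiers of the pathway had male values below all female values but missed the threshold in edgeR. *Nrarp* was at 21.6 to 30.6 CPM in males and 33.6 to 49.3 CPM in females, *Hey2* at 3.83 to 4.56 against 5.15 to 6.52 CPM, *Heyl* at 3.96 to 4.63 against 5.78 to 12.3 CPM, and *Lfng* at 11.98 to 15.2 against 15.8 to 25.9 CPM. Their log2 differences were -0.57, -0.49, -1.04 and -0.59, with edgeR adjusted *p* from 0.154 to 0.185. All 4 passed in DESeq2 with genotype and sex, with adjusted *p* from 0.0139 to 0.0501. *Hes5* and *Hey1* of the 10 members overlapped between the sexes. All 3 males had a higher cortical marker sum than all 5 females, so sex and cortical marker RNA cannot be told apart in these mice. With the cortical sum in the fit, 0 genes of all and 0 of the pathway passed for sex, beside 657 genes of all without it. Because the cortical sum parts the sexes fully, that fit cannot decide whether the pathway differs by sex.

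By likeness of pattern over the 8 mice, the gene nearest to each member among the others tested was *Bcan* for *Notch1* (r = 0.99), *Ifitm3* for *Notch2* (0.98), *Naprt* for *Notch3* (0.97), *Jag1* for *Dll1* (0.97), *Ofd1* for *Jag1* (0.98), *Evpl* for *Jag2* (0.97), *Sox5* for *Hes1* (0.99), *Map3k11* for *Hes5* (0.98), *Gm42608* for *Hey1* (0.98) and *Frg2f1* for *Rbpj* (0.98). These are the highest of 17668 values each and have no test. For *Dll1* the nearest of all genes was another member of the set. The mean of the 10 genes, each taken relative to its own mean, was highest in WT replicate 4 (0.27 on the log2 scale) and lowest in WT replicate 2 (-0.16), with the 4 KO mice between -0.08 and -0.0040. Outside the 10 genes, *Naprt*, *Caskin2* and *Phf2* followed that mean most closely (r = 0.98, 0.98 and 0.96).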

How the data were processed

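Polyadenylated RNA libraries of 4 KO and 4 WT mice were prepared and sequenced on a single flow cell lane. Per the study's methods and the submitters' processing notes, the authors demultiplexed reads with bcl2fastq 2.20 and quantified transcripts with Salmon (its version is not given in the sources used here) against Gencode M29. The authors deposited estimated counts per gene, not normalized, and, for each mouse, estimated counts and TPM per transcript. Gene identifiers were given symbols from the RefSeq-derived name table, which matched 94.8% of 54307, and 97.4% of 140793 transcripts were matched to genes. Estimated counts split reads between transcripts by probability, so shares of short or similar transcripts are uncertain.

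Counts were rounded, genes with low counts removed (filterByExpr), libraries scaled by TMM, and KO compared with WT by edgeR 4.0.16 (quasi-likelihood test, two-sided, no covariates), with Benjamini-Hochberg adjustment over 17669 genes and a threshold of 0.1. Standard errors and 95% intervals come from the same fit. Sex was tested in a fit with genotype. Log2 CPM for correlations used a prior count of 2. TPM per gene is the sum over its transcripts. DESeq2 1.42.0 and other scalings, filters, covariates and left-out mice were alternatives. The edgeR procedure was tested on simulated data. Simulated counts for KO minus WT carried no sex difference and used a spread estimated with sex in the fit. They therefore do not show how many changes the reported fit can find. Total counts, 47887437 to 74482334, gave each member at least 199 counts in every mouse, and the spread between mice rather than counting error set the intervals. Mice of a group are separate animals. Dedicated Notch lists and 12 marker lists were used, and *Sox9* stands in both a Notch and a marker list. The members and lists were chosen with earlier results of these data known. Named genes were the 10 members, *Lrig1*, *Notch4*, *Dll4*, *Dll3*, *Lfng*, *Nrarp*, *Hey2* and *Heyl*, any other Notch gene with an unadjusted *p* under 0.05 or, since there was none, the 3 with the largest absolute log2 fold change at a mean of at least 1 CPM, and the nearest genes by likeness. No column of the tables was left without a mouse. Promoter windows are from RefSeq (GRCm38.p6), while the counts used Gencode M29, so no other coordinates are given.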

Additional observations from a re-analysis of the deposited data

Results flagged for a closer look

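In 70 sets of 4 mice, 5 had a single mouse far from the other 3, by Dixon's criterion. Chance gives about 1 in 20 such sets. *Jag2* was at 33.7 CPM in KO replicate 2, and the next KO mouse was at 24.5 CPM. *Dll4* was at 2.75 CPM in WT replicate 3, and the next WT mouse was at 2.07 CPM. *Fbxw7* was at 246.0 CPM in WT replicate 2, and the next WT mouse was at 101.7 CPM. The oligodendrocyte precursor marker sum was low in KO replicate 3, at 274.8 CPM, with the next KO mouse at 315.3 CPM. The cortical excitatory neuron marker sum was 1704 CPM in WT replicate 2, and the next WT mouse had 325.5 CPM. The part of tissue outside the V-SVZ in these values was not tested.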

How the results depend on the processing

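Under all 19 alternatives, 0 of 10 members and 0 of the other Notch pathway genes passed for KO against WT, as in the reported fit, and adjusted *p* of the members ran from 0.824 to 1.0. Over all genes the count of calls was 1, and it was 12 with DESeq2, 201 with DESeq2 and sex as a covariate, 2 without a count filter, 2 with sex as a covariate, 3 with females alone, and 0 with at least 10 counts in every mouse. For sex, 0 members passed, with 0 to 1 without a single mouse (*Hes1* passed without KO replicate 1, at 0.59). Over all genes the sex calls were 657, and 1542 with DESeq2, 1360 without a count filter, and 10 to 1462 without a single mouse (10 without WT replicate 2, 59 without KO replicate 3). In the further Notch genes 2 passed for sex, 8 with DESeq2 (*Nrarp*, *Hey2*, *Heyl* and *Lfng* among them), 7 without a count filter and 0 without WT replicate 2 or without KO replicate 3. Isoform calls were 0 in all 9 alternatives, which shows no stability, since a single gene could not pass in that design. The 12 correlated pairs became 2 to 11 without a single mouse, an alternative chosen after seeing the data, as were those on cortical markers. Mean TPM over protein coding transcripts alone was 3.06 for *Notch2*, 2.73 for *Jag1* and 43.0 for *Hey1*, each over 1 SD higher than reported, and 1 neighbouring pair stayed apart in both TPM alternatives.

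Labels give both genotypes replicate numbers 1 to 4. Same-numbered mice did not deviate together (r = 0.08, -0.22, -0.22 and 0.27), not every mouse correlated best with its own number, and the numbers were not taken as pairs. With the replicate block 0 members, 0 other Notch genes and 0 genes of all passed, and *Notch4* was at 0.012.

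Signs of log2 fold changes near 0 turned as follows, and the cause was not tested. For KO minus WT, *Dll1* was at -0.032, *Jag1* at -0.031, *Rbpj* at 0.032, *Dll4* at -0.14 and *Heyl* at 0.24 with females alone, and *Dll1* was at -0.076, *Jag1* at -0.050 and *Rbpj* at 0.027 without the 2 mice of highest cortical markers. Transcript sums with length offsets gave -0.013 for *Jag2*, 0.74 for *Notch4*, 0.027 for *Heyl* and -0.044 for *Maml2*. With sex as a covariate *Notch4* was at 0.0074, *Lfng* at 0.020, *Nrarp* at 0.10, *Hey2* at 0.024 and *Heyl* at 0.21, and with DESeq2 and sex they were at 0.0049, 0.018, 0.097, 0.020 and 0.20. With the cortical marker sum as a covariate *Fbxw7* was at 0.066 and *Maml2* at -0.078 for KO minus WT, and *Notch2* at 0.20 and *Hes5* at 0.042 for male minus female. Leaving out each mouse in turn, the KO minus WT value ran from -0.081 to 0.24 for *Dll1*, -0.051 to 0.13 for *Jag1*, -0.085 to 0.21 for *Jag2*, -0.32 to 0.029 for *Hes1*, -0.13 to 0.020 for *Rbpj*, -0.10 to 0.15 for *Notch4*, -0.15 to 0.15 for *Dll4*, -0.32 to 0.062 for *Lfng*, -0.26 to 0.11 for *Nrarp*, -0.46 to 0.40 for *Heyl*, -0.56 to 0.20 for *Fbxw7* and -0.084 to 0.13 for *Maml2*. The male minus female value then ran from -0.21 to 0.032 for *Notch2*, -0.084 to 0.10 for *Hey1* and -0.024 to 0.17 for *Rbpj*. With 4 mice a group, any difference inside a 95% interval given remains compatible with these data. A gene that did not pass may still differ.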
